A study of Mus musculus with 20 samples.

Results

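The change in ribosome-bound mRNA beyond the change in total RNA was measured for mouse oocytes between prophase I arrest (0 h) and mid prometaphase I (4 h). For each gene listed in both deposited tables it was calculated as the difference between 4 h and 0 h in ribosome-bound RNA minus the same difference in total RNA, on log2(value + 1). It is called the excess change below. It could be computed for 7346 of the 8114 genes listed in either table. It rests on 8 of the 20 libraries of the series: ribosome-bound RNA at 0 h, ribosome-bound RNA at 4 h, total RNA at 0 h and total RNA at 4 h, each with a library A and a library B. Every group came from C57BL/6 females, 3 weeks old, positive for Zp3-Cre and carrying the RiboTag allele, primed with 5 IU of PMSG. The oocytes were collected after 44 h, their cumulus cells were removed, and all were held at prophase I in 1 µM cilostamide, an inhibitor of phosphodiesterase 3. The 4 h groups then matured in medium without cilostamide, and 200 oocytes were collected for each sample. RiboTag is an allele that puts a haemagglutinin tag on a ribosomal protein in cells with Cre, here driven by the oocyte promoter of Zp3, so that ribosomes and the mRNA on them can be precipitated from those cells. One label field gives the total RNA libraries as ribosome-bound as well, against their titles and the series design, which were followed here. The labels speak of duplicates but do not say that A and B were separate collections of animals. The p-values therefore measure the spread between A and B samples, which may be technical. That spread was estimated for each gene over all 20 libraries, not only these 8.

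A fully grown mouse oocyte makes almost no new RNA, and the transition from prophase to metaphase is run largely by choosing which stored mRNAs are translated. Many stored mRNAs have a short poly(A) tail and carry U-rich cytoplasmic polyadenylation elements near the 3′ end; binding of CPEB1 and, later, DAZL to such mRNAs is known to lengthen the tail and bring ribosomes in, whereas other mRNAs lose their tail and their ribosomes. Cyclin B and MOS are classic products of activated mRNAs, and zona pellucida glycoproteins are classic products of the growth phase that precedes maturation. Setting ribosome-bound RNA against total RNA is meant to separate a change in ribosome association from a change in the amount of a message.

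The 8 libraries held 27571236 to 44362650 reads in the listed genes, as computed from the totals and steps of their values. A value of 10 thus stood for 282 to 444 reads. A and B of a group correlated at r = 0.95 to 0.974 across genes. The 2 tables were scaled separately, so levels were compared only within a table; because values are relative to each library, a change shared by all mRNAs would not show. All 15 oocyte markers examined were listed in both tables. Of 24 granulosa and cumulus markers, 4 were listed in ribosome-bound RNA, namely Serpine2, Nr5a2, Cyp19a1 and Fshr, with a summed value of 199 and 207 at 0 h and 302 and 315 at 4 h, and 7 in total RNA, with 398 and 330.1 at 0 h and 366 and 415 at 4 h. The others, Foxl2, Amh and Has2 among them, were not listed. Of 20 blood, stroma and endothelium markers only Tek and Pecam1 were listed, summing to 155 and 190 (0 h) and 128 and 126 (4 h) in ribosome-bound RNA. The part of these cells in the results was not tested; in such bulk samples fewer cells of a type and less RNA per cell cannot be told apart. Ribosome-bound 4 h library A stood apart from the rest: on the second principal component of the ribosome-bound libraries, with 12.5% of the variance, it lay at -34.0, and the next lowest library lay at -4.9. Values without it are therefore given beside the results. Ribosome-bound RNA at 4 h is then a lone library, assumed to vary like the other groups.

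The excess change passed the threshold, a Benjamini-Hochberg adjusted p under 0.05 in limma, for 375 genes (5.1% of 7346), of which 227 (3.09%) were higher and 148 (2.01%) were lower. At an unadjusted p under 0.05 there were 1398 genes. In ribosome-bound RNA alone 801 genes rose (10.9%) and 665 fell (9.05%) from 0 h to 4 h, while total RNA alone gave 0 calls in limma (0% of 7346), with 249 genes at an unadjusted p under 0.05. Among the genes called higher, the median excess change was 1.10 (interquartile range 0.86 to 1.36), made of a median change of 1.02 in ribosome-bound RNA and -0.04 in total RNA. Among the genes called lower the median was -1.08 (-1.41 to -0.87), made of -1.005 in ribosome-bound RNA and 0.09 in total RNA. The change was at least 2-fold for 132 of the 227 and 87 of the 148. In each of the 375 genes the 4 differences between ribosome-bound libraries did not overlap the 4 between total RNA libraries, which also held for 2275 of all 7346 genes. In total RNA alone the 0 h and 4 h libraries did not overlap in 2649 of the 7346, so that such a gap by itself does not show a change. The 375 calls take their spread from all 20 libraries of the series. In a fit of only these 8 libraries 162 genes passed (101 higher, 61 lower). With time and letter as a replicate block in limma 0 passed, with 1169 at an unadjusted p under 0.05. The labels do not say that letters pair the samples. Without ribosome-bound 4 h library A 216 genes passed (131 higher, 85 lower); 151 passed without total RNA 0 h library A, 210 without 0 h library B, 202 without 4 h library A and 186 without 4 h library B. Leaving out each of the 8 libraries in turn, 110 of the 375 passed every time, 79 higher and 31 lower; such genes are said below to have held.

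**Figure D1:**
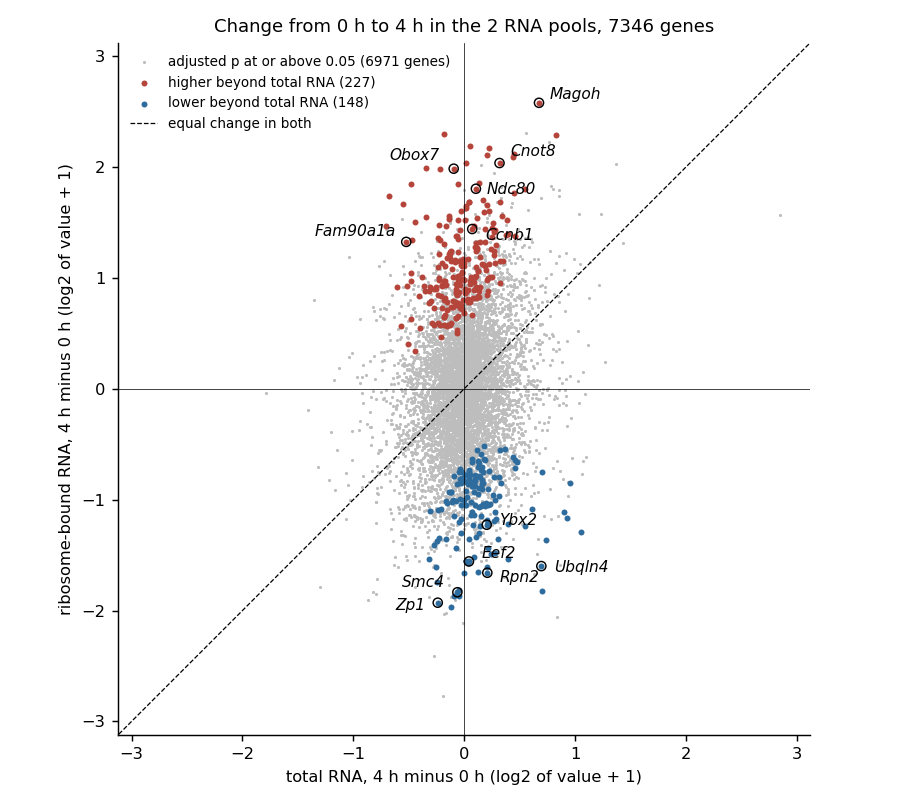
Change from 0 h to 4 h in total RNA (horizontal axis) and in ribosome-bound RNA (vertical axis), both on log2(value + 1), for 7346 genes. The dashed line marks equal change, and red and blue points are the 227 genes higher and the 148 lower beyond total RNA. The coloured points spread mainly along the vertical axis, with medians of 1.02 and -1.005 in ribosome-bound RNA against -0.04 and 0.09 in total RNA.

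The mRNA of Ccnb1, which encodes cyclin B1, the activating subunit of the kinase CDK1, rose on ribosomes. Its ribosome-bound values were 103 and 88.0 at 0 h and 268 and 252 at 4 h, while its total RNA values were 202 and 199.7 at 0 h and 211 and 211 at 4 h. The groups did not overlap in either pool, but the change was 1.44 in ribosome-bound RNA and 0.07 in total RNA. The excess change was 1.37 ± 0.20 (limma SE; adjusted p = 0.000166), a fold of 2.58, and it held. Ccnb3, an oocyte cyclin needed for anaphase I, read 100.3 and 80.3 at 0 h and 151 and 163 at 4 h in ribosome-bound RNA against 93.7 and 103 and then 83.9 and 88.6 in total RNA. Mos, the kinase that starts the MAPK cascade of meiosis, read 128 and 97.9 and then 200.1 and 254 in ribosome-bound RNA against 156 and 175 and then 184 and 169 in total RNA. The excess changes of Ccnb3 (0.98 ± 0.25) and Mos (0.91 ± 0.23) both had an adjusted p of 0.0196, and neither held. Mos lost the call without ribosome-bound 0 h B or 4 h B or total RNA 0 h B or 4 h B (0.72 to 1.10 over the leave-outs, adjusted p up to 0.0854), and Ccnb3 without ribosome-bound 0 h B or any 1 total RNA library (0.83 to 1.14, up to 0.0795). These were the 3 calls among 32 tested kinases, cyclins and phosphatases of M-phase entry and exit (9.38% against 3.09% of all genes). The list had 0 lower calls. Members of this list and of those below were chosen with earlier results of these data known, so their shares of calls are not independent evidence. The list median was 0.22, and -0.02 without ribosome-bound 4 h library A, beside 0 over all genes. Ccnb2, the other B-type cyclin of the mitotic cycle, differed from Ccnb1. It read 202 and 227 at 0 h and 159 and 261 at 4 h in ribosome-bound RNA, with overlapping groups. Its total RNA read 140 and 116 and then 241 and 139. The change was -0.07 on ribosomes and 0.52 in total RNA, and the excess change was -0.59 ± 0.40 (adjusted p = 0.452). Cdk1, their kinase partner, read 108 and 109.6 and then 105 and 106 on ribosomes. Its total RNA read 46.7 and 48.0 and then 63.5 and 57.2 (-0.38 ± 0.35, adjusted p = 0.611). Wee2, the oocyte kinase that restrains CDK1, read 675 and 587 and then 747 and 633 on ribosomes (-0.02 ± 0.17, adjusted p = 0.978). Mastl, the kinase that holds PP2A in check during M-phase, had an excess change of 0.61 ± 0.19, which missed the threshold with an adjusted p of 0.0577.

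**Figure D2:**
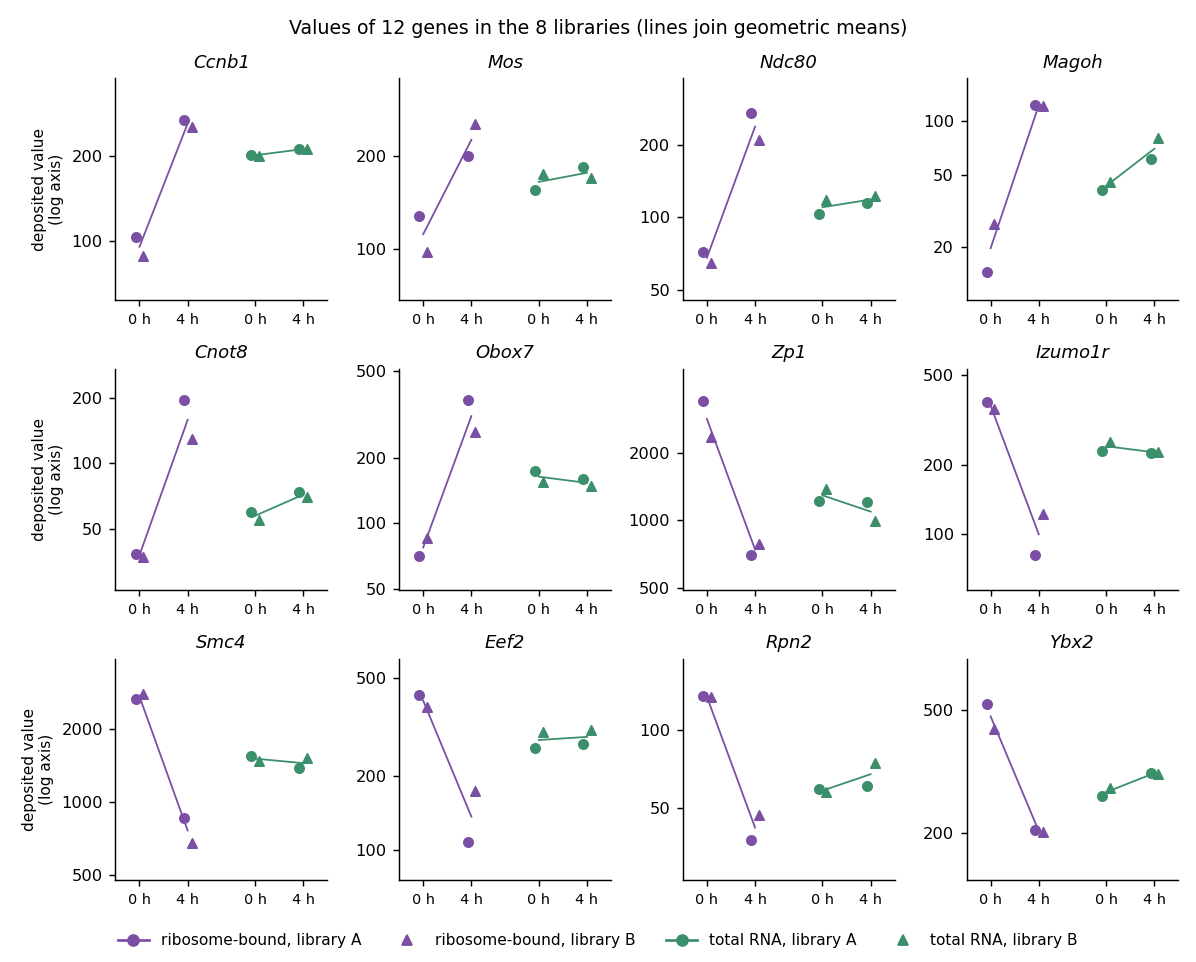
Deposited values of 12 genes in ribosome-bound RNA (purple) and total RNA (green) at 0 h and 4 h, each panel on its own log axis; circles are libraries A, triangles libraries B, and lines join geometric means. In every panel the ribosome-bound points at 0 h and 4 h are apart, as for Ccnb1 (88.0 and 103 against 252 and 268) and Zp1 (2352 and 3380 against 696 and 786), while total RNA moves less.

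Around the resumption of meiosis, the genes of prophase arrest and its release gave 1 call among 14 tested (7.14%, against 2.01% lower of all genes). It was a fall of Akap1, the anchor that places protein kinase A on mitochondria. Akap1 read 474 and 545 at 0 h and 274 and 257 at 4 h in ribosome-bound RNA and 287 and 282 and then 241 and 286 in total RNA. Its excess change of -0.82 ± 0.22 (adjusted p = 0.0313) kept the call only without ribosome-bound 0 h A or total RNA 4 h A and reached an adjusted p of 0.156 without 1 of the other 6 libraries. Of 21 tested genes of the anaphase-promoting complex and its regulators, 1 rose (4.76% against 3.09% of all genes). It was Cdc27, a scaffold subunit. Its ribosome-bound values were 369 and 312 at 0 h and 787 and 726 at 4 h. Its total RNA read 671 and 632 and then 683 and 589. The Cdc27 excess change of 1.19 ± 0.18 (adjusted p = 0.000312) held. Cdc20, the activator of the complex, read 49.98 and 56.1 and then 133 and 92.1 in ribosome-bound RNA, but its total RNA also differed between the times (48.0 and 46.1 against 58.2 and 65.1), and the excess change of 0.67 ± 0.32 was not called (adjusted p = 0.253).

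Genes of the kinetochore and the spindle checkpoint gave 7 calls among 37 tested, all 7 higher (18.9% against 3.09% of all genes). Ndc80, which attaches microtubules at the kinetochore, had the largest: its ribosome-bound values were 71.4 and 64.5 at 0 h and 272 and 211 at 4 h, and its total RNA values 103 and 118 at 0 h and 115 and 123 at 4 h. The excess change of Ndc80 was 1.70 ± 0.24 (adjusted p = 0.000142), a fold of 3.24. Bub1b, the checkpoint protein BUBR1, started from a much higher level and read 1193 and 1417 and then 2631 and 2238 in ribosome-bound RNA, against 2049 and 1885 and then 1930.0 and 2030.0 in total RNA, an excess of 0.89 ± 0.16 (adjusted p = 0.00201). Cenpn, which binds centromeric nucleosomes, changed by 1.23 ± 0.25, and Cdca8, the borealin subunit of the chromosomal passenger complex, by 1.21 ± 0.25. Both held, as did Ndc80 and Bub1b. Cenpc1, an inner kinetochore protein, had an excess of 1.64 ± 0.39 at low values (12.01 and 14.3 at 0 h, 43.3 and 45.4 at 4 h in ribosome-bound RNA) and lost the call without total RNA 0 h B or 4 h A (adjusted p up to 0.065). Cenph (1.15 ± 0.30) lost the call without 1 of 5 libraries, among them ribosome-bound 4 h A and 4 h B (adjusted p up to 0.147), and Mad2l1 (0.79 ± 0.22), the checkpoint protein MAD2, without any library but ribosome-bound 0 h A (adjusted p up to 0.138). Members of the list were chosen with earlier results of these data known, so its share of calls is not independent evidence. The list had 26 of 37 members above 0 and a median of 0.25. It kept 5 calls without ribosome-bound 4 h library A and 4 without total RNA 0 h library B.

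Of 40 tested genes of the spindle, the centrosome and cytokinesis, 9 rose (22.5% against 3.09% of all genes) and 0 fell. Kif20a, a kinesin of the central spindle, read 39.7 and 52.3 at 0 h and 121 and 117 at 4 h in ribosome-bound RNA, while total RNA read 44.3 and 58.6 and then 47.8 and 38.5. Both 4 h values were more than 2-fold above both 0 h values on ribosomes, and the total RNA groups overlapped. The excess change was 1.603 ± 0.30 (adjusted p = 0.00243). Kif18a, a kinesin that limits microtubule length, read 33.3 and 43.5 and then 122 and 103 in ribosome-bound RNA against 67.4 and 73.7 and then 76.6 and 76.2 in total RNA, an excess of 1.42 ± 0.31 (adjusted p = 0.00794). Anln, the actin-binding protein anillin of the cleavage furrow, changed by 1.19 ± 0.23, and Kif2c, a kinesin that removes tubulin from microtubule ends, by 1.07 ± 0.21. These 4 held. Tpx2, which activates Aurora A on the spindle, read 424 and 477 and then 1004 and 819 in ribosome-bound RNA, and its total RNA was also higher at 4 h (389 and 351 against 455 and 425). Its excess of 0.76 ± 0.18 (adjusted p = 0.0153) fell to 0.61 with an adjusted p of 0.0964 without ribosome-bound 4 h library A, and was also lost without total RNA 0 h A or 4 h B. The other 4 calls, Nusap1, Kif4, Mapre1 and Kif23, had excesses of 0.65 to 0.90 and were each lost without 4 to 7 of the 8 libraries, total RNA 0 h library A among them each time (adjusted p up to 0.194). The list median was 0.35, with 32 of 40 members above 0; 5 calls remained in number without ribosome-bound 4 h library A, and 4 without total RNA 0 h library A.

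Cohesin and condensin genes went both ways, with 3 of 27 higher and 2 lower (11.1% and 7.41%, against 3.09% and 2.01% of all genes). Wapl, which releases cohesin from chromosomes, read 445 and 504 at 0 h and 1100.0 and 952 at 4 h in ribosome-bound RNA against 668 and 704 and then 802 and 757 in total RNA (0.93 ± 0.17, adjusted p = 0.00151). Ncapg2, a subunit of condensin II, rose by 1.14 ± 0.23 (adjusted p = 0.00405). Smc4, a ring subunit of both condensins, did the opposite. In ribosome-bound RNA 2657 and 2790.0 at 0 h became 857 and 678 at 4 h. Its total RNA read 1541 and 1478 and then 1381 and 1513. Its excess change of -1.77 ± 0.23 (adjusted p = 5.69e-05) was a 3.42-fold fall, and it held, as did those of Wapl and Ncapg2. Rad21, a cohesin subunit, rose by 0.99 ± 0.21 but lost the call without total RNA 0 h A or 4 h B (adjusted p up to 0.0567). Mau2, a loader of cohesin, read 73.4 and 62.3 and then 23.8 and 28.0 in ribosome-bound RNA against 38.8 and 47.8 and then 51.5 and 55.6 in total RNA. Its excess of -1.66 ± 0.41 (adjusted p = 0.0174) was lost without ribosome-bound 4 h A or total RNA 0 h A or 4 h B (up to 0.0922).

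Among 30 genes of replication licensing and origin firing, which the zygote will need for its first S phase, 1 rose and 1 fell. That was 3.33% each way, against 3.09% and 2.01% of all genes. Mcm4, a subunit of the replicative helicase, read 120 and 91.5 at 0 h and 299 and 308 at 4 h on ribosomes, whereas total RNA read 179 and 193 and then 196 and 163. Its excess change of 1.58 ± 0.21 (adjusted p = 7.03e-05) held. Rpa1, the large subunit of the single-strand binding protein, fell from 338 and 304 to 168 and 205 on ribosomes, with 139 and 152 and then 148 and 170 in total RNA (-0.92 ± 0.24, adjusted p = 0.0248). Without ribosome-bound 4 h A the adjusted p was 0.124, and the call was also lost without ribosome-bound 0 h A or total RNA 0 h A, 0 h B or 4 h B. Of 24 genes of chromatin and histone supply, 4 rose and 2 fell (16.7% and 8.33%, against 3.09% and 2.01% of all genes). Slbp, which binds the stem-loop of histone mRNAs, read 263 and 249.7 and then 927 and 820.4 in ribosome-bound RNA against 369 and 338 and then 454 and 515 in total RNA (1.31 ± 0.18, adjusted p = 0.000116). Rbbp7, a histone chaperone of several chromatin complexes, read 337 and 423 and then 1189 and 988 on ribosomes and 647 and 770 and then 871 and 981 in total RNA (1.13 ± 0.20, adjusted p = 0.00151). The total RNA changes of Slbp (0.45) and Rbbp7 (0.39) were not called (adjusted p = 0.9998 for both). Kdm1b, the histone demethylase needed to set maternal imprints, went down on ribosomes from 645 and 740 to 391 and 336 while total RNA read 208 and 210.1 and then 205 and 240 (-1.02 ± 0.20, adjusted p = 0.00349). These 3 held; H2afx, the histone variant of DNA damage foci (1.47 ± 0.33), Eed, a subunit of Polycomb complex 2 (1.02 ± 0.29), and Hdac2, a histone deacetylase (-1.01 ± 0.26), passed with all libraries but lost the call without ribosome-bound 4 h A and without at least 2 others, with adjusted p up to 0.212. The list gave 2 higher and 1 lower call without ribosome-bound 4 h library A.

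Genes of mRNA decay gave 3 calls higher among 24 tested (12.5% against 3.09% of all genes) and 0 lower. Cnot8, a catalytic deadenylase of the CCR4-NOT complex, read 38.4 and 37.3 at 0 h and 194 and 129 at 4 h in ribosome-bound RNA, against 59.8 and 55.0 and then 73.6 and 70.0 in total RNA. The excess change of Cnot8 was 1.72 ± 0.37 (adjusted p = 0.00719). Without ribosome-bound 4 h library A, the higher of the pair, it was 1.42 with an adjusted p of 0.057. Pan2, the nuclease of the other deadenylase, read 167 and 139 and then 285 and 284 on ribosomes and 269 and 268 and then 288 and 283 in total RNA (0.80 ± 0.19, adjusted p = 0.0137), and lost the call without ribosome-bound 0 h B or total RNA 0 h A or 4 h B (up to 0.0567). Cnot6l, a further CCR4-type deadenylase, had an excess of 0.63 ± 0.17 and lost the call without 5 libraries (up to 0.178). Without ribosome-bound 4 h library A the list had 1 call. Btg4, the adaptor that directs CCR4-NOT to maternal mRNAs, was 385 and 460.0 and then 578 and 498 on ribosomes and 900.0 and 955 and then 1120.0 and 1164 in total RNA. Both pools were higher at 4 h, and the excess was 0.05 ± 0.19 (adjusted p = 0.933).

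The regulators of polyadenylation and mRNA storage gave 2 higher and 3 lower calls among 46 (4.35% and 6.52% against 3.09% and 2.01% of all genes), with a median of -0.02. There were 1 higher and 1 lower without ribosome-bound 4 h library A, and 0 to 3 higher and 1 to 4 lower over all leave-outs. Ybx2, the germ-cell Y-box protein that packages and stabilises stored mRNAs, fell on ribosomes from 522 and 433 to 205 and 201, while its total RNA went from 262 and 279 to 313 and 311. The total RNA change of 0.20 was not called (adjusted p = 0.9998), and the excess change of -1.43 ± 0.23 (adjusted p = 0.000487) held. Zar1, which also binds stored mRNAs, read 1740.0 and 1602 and then 722 and 1057 on ribosomes and 746 and 615 and then 629 and 615 in total RNA. Its excess of -0.81 ± 0.22 (adjusted p = 0.0286) was -0.54 with an adjusted p of 0.205 without ribosome-bound 4 h library A. Dazl, a translational activator of germ cells, read 163 and 154 and then 280.4 and 316 on ribosomes against 273 and 281 and then 319 and 290.3 in total RNA. Its excess of 0.77 ± 0.21 (adjusted p = 0.0286) kept the call without ribosome-bound 0 h A or 4 h A and lost it without each of the other 6 libraries (up to 0.122). Elavl2, an RNA-binding protein of the Hu family, rose by 0.82 ± 0.21 (adjusted p = 0.0217), and Fxr2, a relative of the fragile X protein, fell by 0.95 on the log2 scale; each lost the call without 5 libraries. Cpeb1, the reader of the polyadenylation element, was not called: 1944 and 2040.0 and then 2489 and 1901 on ribosomes, with overlapping groups and an excess of 0.25 ± 0.17 (adjusted p = 0.465).

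Magoh, a core component of the exon junction complex, had the largest ribosome-bound rise of the genes examined in detail. Its ribosome-bound values were 14.4 and 26.7 at 0 h and 123 and 121 at 4 h, a change of 2.58, while its total RNA read 41.2 and 45.9 and then 61.4 and 79.9, a change of 0.67 that was not called. The difference of the pools was 1.90 ± 0.32 (adjusted p = 0.000996), and it held. Sf3b1, a splicing factor of the branch-site particle, read 308 and 291 and then 519 and 509.8 on ribosomes against 386 and 386 and then 403 and 387 in total RNA (0.75 ± 0.18, adjusted p = 0.0148), and lost the call without total RNA 0 h A, 0 h B or 4 h B (up to 0.0642). These were the only 2 calls among 25 exon junction and SR protein genes (8% against 3.09% of all genes). The list had 0 lower calls, 18 of 25 members above 0 and a median of 0.55.

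Of 45 tested initiation and elongation factors of translation 3 fell (6.67% against 2.01% of all genes) and 0 rose. Eef2, the factor that translocates the ribosome, read 429 and 383 at 0 h and 108 and 174 at 4 h in ribosome-bound RNA, with 259 and 304 and then 271 and 308 in total RNA. The excess change of Eef2 was -1.598 ± 0.27 (adjusted p = 0.000843), and -1.25 with an adjusted p of 0.00888 without ribosome-bound 4 h library A. Eif5b, which joins the ribosomal subunits, read 969 and 1091 and then 399 and 407 on ribosomes against 970 and 887 and then 781 and 800 in total RNA (-1.12 ± 0.22, adjusted p = 0.00405). Both held. Eif3l, a subunit of initiation factor 3, had an excess change of -1.15 ± 0.29 (adjusted p = 0.0196) and lost the call without ribosome-bound 4 h B or total RNA 0 h A, 0 h B or 4 h A (up to 0.0851). The 47 cytosolic ribosomal protein genes gave 0 calls in limma in either direction and had a median of -0.28, with 38 of 47 below 0. Without ribosome-bound 4 h library A the median was -0.01.

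Of 36 tested genes of translocation, folding and glycosylation in the endoplasmic reticulum, 5 fell (13.9% against 2.01% of all genes) and 0 rose. In ribosome-bound RNA alone 4 of the 36 were called higher and 8 lower. Ostc, another member, was listed only in ribosome-bound RNA and is described at the end. Rpn2, a subunit of the oligosaccharyl transferase, read 135 and 134 at 0 h and 37.4 and 46.9 at 4 h in ribosome-bound RNA, against 58.9 and 57.7 and then 60.9 and 74.7 in total RNA. Its excess change of -1.87 ± 0.32 (adjusted p = 0.000996) was a 3.65-fold fall. Calr, the calcium-binding chaperone calreticulin, read 735 and 680 and then 293 and 348 on ribosomes against 268 and 244 and then 267 and 300.3 in total RNA (-1.29 ± 0.25, adjusted p = 0.00358). Rpn2 and Calr held. Hyou1, a chaperone of the HSP70 family (-0.96 ± 0.25), Ero1lb, an oxidase for disulphide bonds (-0.996 ± 0.26), and Pdia3, a disulphide isomerase (-0.77 ± 0.21), lost the call without 6, 5 and all 8 of the libraries in turn, with adjusted p up to 0.137. The list median was -0.37. It had 3 calls without ribosome-bound 4 h library A and 2 without ribosome-bound 4 h library B.

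Of the 17 tested genes for zona, surface and secreted proteins of the oocyte, 5 fell and 1 rose (29.4% and 5.88%, against 2.01% and 3.09% of all genes). Zp1, the glycoprotein that cross-links zona filaments, went from 3380.0 and 2352 to 696 and 786 in ribosome-bound RNA, and from 1213 and 1370.0 to 1204 and 989 in total RNA. The excess change of Zp1 was -1.69 ± 0.21 (adjusted p = 4.07e-05), the smallest adjusted p of the genes named here. Zp2, the zona protein that binds sperm, read 5411 and 5252 and then 2169 and 2464 on ribosomes against 1301 and 1125 and then 1175 and 1160.0 in total RNA (-1.15 ± 0.17, adjusted p = 0.000202). Zp3, whose promoter drives the Cre of these animals, read 8334 and 5909 and then 2437 and 3024 on ribosomes against 2480.0 and 2559 and then 2221 and 2039 in total RNA (-1.13 ± 0.22, adjusted p = 0.00358). Izumo1r, the sperm receptor Juno, fell from 381 and 352 to 80.8 and 123 on ribosomes, with 232 and 255 and then 228 and 229 in total RNA, a 3.43-fold fall (-1.78 ± 0.25, adjusted p = 0.000142). These 4 held. Kit, the receptor for the growth signal from granulosa cells, read 1411 and 1118 and then 741 and 670.4 on ribosomes (-0.83 ± 0.18, adjusted p = 0.00782) and lost the call without total RNA 0 h library A (adjusted p = 0.0718). Oosp1, a secreted oocyte protein, was the exception: 187 and 236 became 753 and 715 on ribosomes, total RNA went from 466 and 451 to 722 and 625, and the excess change of 1.25 ± 0.20 (adjusted p = 0.000525) held. The summed value of the 15 oocyte markers, which include these 6 genes except Izumo1r, was 57080 and 47110 in ribosome-bound RNA at 0 h and 31500 and 37730 at 4 h, and 19560 and 18720 and then 18590 and 17760 in total RNA.

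**Figure D3:**
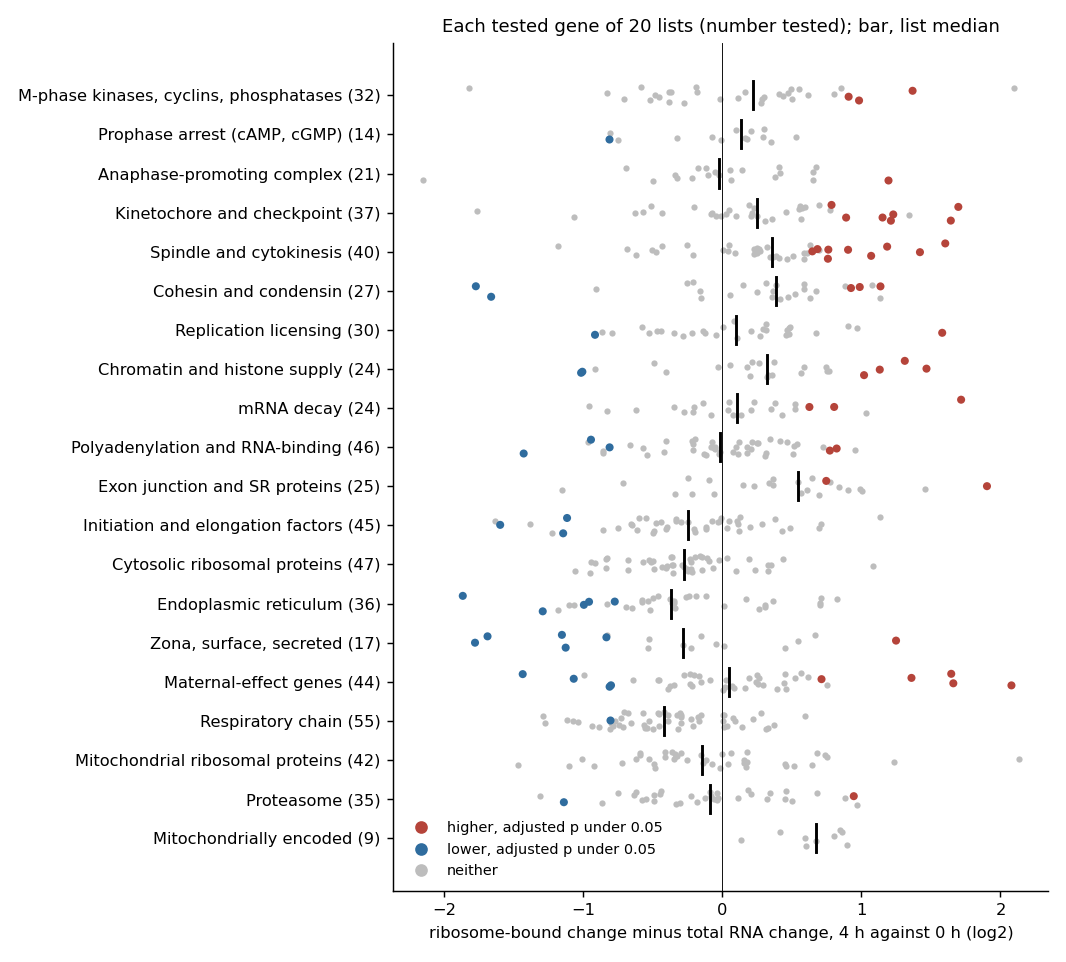
Excess change at 4 h of every tested gene in 20 gene lists, in log2 units. The number tested stands beside each list, black bars are list medians, and red and blue points are genes called higher and lower. Lists were chosen with earlier results of these data known. Spindle and kinetochore genes carry 9 and 7 red points and no blue one, while endoplasmic reticulum genes carry 5 blue points and no red one; most members of every list are grey.

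Maternal-effect genes split, with 5 higher and 4 lower among 44 (11.4% and 9.09%, against 3.09% and 2.01% of all genes), Zar1 above included. Without ribosome-bound 4 h library A there were 6 and 2. Obox7, an oocyte homeobox gene, had the largest rise of the genes named by rule: 70.5 and 85.3 at 0 h became 366 and 262 at 4 h on ribosomes, while total RNA read 173 and 155 and then 159 and 148. Its excess was 2.08 ± 0.27 (adjusted p = 7.76e-05), a fold of 4.23, and 1.84 without ribosome-bound 4 h library A. Obox5, of the same family, rose by 1.66 ± 0.26 (adjusted p = 0.000401). Because Obox genes have near-identical copies, reads may have been split between them and both values are uncertain. Rfpl4, an oocyte RING finger protein, read 354 and 250.0 and then 951 and 963 on ribosomes against 684 and 718 and then 927 and 828 in total RNA (1.36 ± 0.19, adjusted p = 0.000159). Among those that fell were Uhrf1 and Dnmt3l, genes of DNA methylation. The DNA methyltransferases on the list were not among the calls. Uhrf1, which guides maintenance methylation, read 2314 and 1880.0 and then 1043 and 970.1 on ribosomes with 749 and 758 and then 790.0 and 735 in total RNA (-1.07 ± 0.17, adjusted p = 0.000691). Dnmt3l, the cofactor of methylation during oocyte growth, read 161 and 171 and then 62.2 and 80.5 on ribosomes with 91.9 and 94.7 and then 101 and 118 in total RNA (-1.44 ± 0.28, adjusted p = 0.00321). The 5 genes named so far in this group held; Tex19.1, a germ-cell protein (1.65 ± 0.42), Zfp57, a keeper of imprints (0.71 ± 0.17), and Trim24, a chromatin reader (-0.80 ± 0.22), lost the call without 4, 2 and 6 of the libraries, total RNA 0 h library A among them each time, with adjusted p up to 0.192.

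Genes of energy supply and protein turnover gave few calls. Lower calls made 1.82% of respiratory chain and ATP synthase genes and 2.86% of proteasome genes, against 2.01% of all genes. Higher calls made 0% and 2.86%, against 3.09%. Of 55 respiratory chain and ATP synthase genes 1 fell, Atp5b, the catalytic beta subunit, from 873 and 574 to 406 and 389 on ribosomes with 529 and 540.4 and then 577 and 479 in total RNA (-0.81 ± 0.21, adjusted p = 0.0254). The call was lost without 6 libraries, both ribosome-bound 4 h libraries among them (up to 0.134). The list median was -0.42, with 41 of 55 below 0, and -0.27 without ribosome-bound 4 h library A. The 42 mitochondrial ribosomal protein genes gave 0 calls in limma (median -0.15), and so did the 9 transcripts made inside mitochondria, which cytosolic ribosomes do not translate. All 9 lay above 0, with a median of 0.67 and values from 0.14 to 0.89. Without ribosome-bound 4 h library A their median was 0.85. What moved these 9 in the excess change was not tested. Of 35 proteasome genes, Psma2, a subunit of the core particle, rose (169 and 202 to 443 and 417 on ribosomes, 189 and 179 to 204 and 240.4 in total RNA; 0.94 ± 0.20, adjusted p = 0.00528) and held. Psmd2, of the regulatory particle, fell on ribosomes from 145 and 148 to 93.3 and 90.9 while total RNA read 49.7 and 58.3 and then 69.5 and 81.5 (-1.14 ± 0.27, adjusted p = 0.0148), and lost the call without total RNA 0 h A or 4 h B (up to 0.0827).

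The largest changes were not confined to these lists. Among the 10 largest rises, Rnf219, a partner of the CCR4-NOT complex, read 78.7 and 74.1 at 0 h and 266 and 294 at 4 h on ribosomes against 162 and 162 and then 155 and 204 in total RNA (1.73 ± 0.26, adjusted p = 0.000355). Dctd, which deaminates dCMP on the way to thymidine nucleotides, read 19.8 and 15.5 and then 69.8 and 40.7 on ribosomes while total RNA went from 94.1 and 103 to 90.5 and 66.4 (1.89 ± 0.37, adjusted p = 0.00358). Taz, the tafazzin acyltransferase of cardiolipin, read 6.74 and 15.6 and then 50.3 and 45.4 on ribosomes against 31.7 and 29.4 and then 35.2 and 35.3 in total RNA (1.90 ± 0.43, adjusted p = 0.00903). Fam90a1a (1.85 ± 0.28) and the zinc finger gene Zfp616 (1.70 ± 0.24) also passed, but belong to families with close copies, so their counts are uncertain. These 5 held. Susd3 (1.90 ± 0.43) lost the call without total RNA 0 h A or 4 h B, and Zfp652, a zinc finger repressor (1.81 ± 0.43), without 5 libraries, among them ribosome-bound 4 h A, where its adjusted p was 0.0976.

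Among the 10 largest falls, Ubqln4, a ubiquilin that delivers proteins to the proteasome, came first. Its ribosome-bound values were 48.3 and 52.1 at 0 h and 17.97 and 14.02 at 4 h, and its total RNA values 15.1 and 20.2 and then 27.8 and 29.95. The total RNA change of 0.695 was not called (adjusted p = 0.9998), and the excess change was -2.29 ± 0.49 (adjusted p = 0.00675), a 4.91-fold fall. Ergic3, a cycling protein of the early secretory pathway, read 234 and 204 and then 44.1 and 68.5 on ribosomes against 79.7 and 106 and then 87.0 and 82.2 in total RNA (-1.85 ± 0.31, adjusted p = 0.00075). Ubqln4 and Ergic3 held, as did Smc4, Rpn2 and Izumo1r above. Gltp, a glycolipid transfer protein (-1.81 ± 0.47), Thoc5, of the mRNA export complex THO (-1.81 ± 0.49), and Dennd3, an activator of RAB GTPases (-1.79 ± 0.42), lost the call without ribosome-bound 4 h library A, with adjusted p of 0.12, 0.0926 and 0.0994, and without 2 to 4 other libraries. Mlycd, malonyl-CoA decarboxylase (-1.77 ± 0.49), kept it without that library but lost it without 6 others.

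Genes reported in earlier literature as translationally activated during oocyte maturation gave 10 higher and 2 lower calls among 33 tested (30.3% and 6.06%, against 3.09% and 2.01% of all genes), with a median of 0.59 and 27 of 33 above 0. The higher ones were Kif20a, Slbp, Dazl, Tpx2, Cnot6l, Tex19.1, Bub1b, Ccnb1, Obox5 and Mos, and the lower ones Zp2 and Zar1. The list was drawn up from general knowledge with earlier results of these data in view, so it is not independent evidence of a direction. It had 7 higher calls without ribosome-bound 4 h library A and 6 without total RNA 4 h library B. Plat, the tissue plasminogen activator whose mRNA was among the first known to be activated in maturing mouse oocytes, was not yet called at 4 h: it read 828 and 1194 and then 2300.0 and 1610.0 on ribosomes and 1860.0 and 2024 and then 2357 and 2374 in total RNA (0.67 ± 0.22, adjusted p = 0.0788).

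Genes called higher and lower were next compared by the sequence of their 3′ ends, as a description. The hexamer TTTTAT or the heptamer TTTTAAT, DNA spellings of cytoplasmic polyadenylation elements, was searched on the sense strand in the last 100 bases of the annotated 3′ UTR of 1 transcript per gene. It was present in 91 of 217 genes called higher with such a window (41.9%), 15 of 141 called lower (10.6%) and 1476 of 6798 tested (21.7%). Of the genes named by rule, 15 of 30 that rose and 4 of 23 that fell had it. Seen from the other side, 6.17% of the 1476 genes with the element were called higher and 1.02% lower, against 2.37% and 2.37% of the 5322 without it, and the median excess change was 0.17 with it and -0.03 without. The windows differed in base composition too: their median GC content was 28% in genes called higher, 37% in genes called lower and 34% over all. In windows at or under 34% GC the element was present in 50.6% of the higher, 18.6% of the lower and 33% of all genes, and in windows over 34% GC in 13.7%, 4.88% and 9.73%. Other orders of the same letters also differed between higher and lower genes, among them TTTTTA (39.6%, 7.8% and 20.5%) and TTATTT (21.2%, 11.3% and 15.6%), the widest and the narrowest gap in percentage points. Such orders can share bases with the element: wherever a T stands before the element, TTTTTA is there as well. Their shares are therefore not separate from that of the element. These orders and the split by GC were chosen after the first shares had been seen, and what sets the difference was not tested. The poly(A) signals AATAAA or ATTAAA stood in the last 40 bases of 86.6%, 79.4% and 77.8%. Whole transcripts had a median GC content of 45.1% in genes called higher, 51.4% in genes called lower and 49.1% over all, while median lengths were 3608, 3752 and 3330 bases. With length and GC content taken out of each library, 342 genes were called (203 higher, 139 lower), 274 of them among the 375. Of the 57 called genes named by rule, 8 then missed the threshold: Dazl (0.41, adjusted p = 0.287), Elavl2 (0.51, adjusted p = 0.171), Ccnb3 (0.76, adjusted p = 0.0736), Sf3b1 (0.55, adjusted p = 0.0623), Zar1 (-0.49, adjusted p = 0.239), Akap1 (-0.70, adjusted p = 0.0875), Atp5b (-0.71, adjusted p = 0.0537) and Mlycd (-1.497, adjusted p = 0.0979).

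Stretches from 10 genes that rose and 4 that fell show how the element lies in single messages. They are the 10 largest and the 4 largest changes among the genes named by rule that have it, each 30 bases of the mRNA strand from 5′ to 3′ (GENCODE vM21, GRCm38, which is mm10), with the element nearest the annotated end in capitals, and any poly(A) signal after it in capitals as well.
Obox7: ttttTTTTATtgttagagaatatgttcatt
Magoh: caatTTTTATaaacAATAAAtgatgatctt
Taz: tgggTTTTAATgtttttagagtAATAAAac
Dctd: taaaaTTTTATtaaaatcatccagcaccaa
Fam90a1a: cctaTTTTATgagcttttctattttcacca
Rnf219: gcttTTTTATgtgaATTAAATAAAggatgt
Cnot8: atgtTTTTAATtttgtaaAATAAAgattgc
Ndc80: agtaTTTTATccccaaattatgataatatg
Mcm4: taatTTTTATagatccttagattattagtt
Rfpl4: tcctTTTTATttgctataatattagtgtat
Gltp: tgatTTTTATgcagaaactaaataatcctt
Ybx2: gccaTTTTATgaactgtcatgtgccacctg
Rpa1: agtgTTTTATgccttccATTAAAcccttgc
Akap1: actcTTTTATagactgtctttagcattgtg
The first 10 rose and the last 4 fell. Among them Cnot8, Gltp, Rpa1 and Akap1 did not hold. All of the stretches lie in the 3′ UTR. In Magoh (chr4:107887354-107887383, plus strand), Taz (chrX:74290102-74290131, plus), Rnf219 (chr14:104477547-104477576, minus) and Cnot8 (chr11:58118553-58118582, plus) a poly(A) signal follows within the stretch, as it does in Rpa1 (chr11:75298175-75298204, minus), which fell. Rnf219 carries 2 overlapping signals there. In Obox7 (chr7:14665939-14665968, plus), Ndc80 (chr17:71496156-71496185, minus), Mcm4 (chr16:15623961-15623990, minus) and Ybx2 (chr11:69941540-69941569, plus) none does, and the element ends 48, 76, 84 and 56 bases before the annotated end. Ccnb1, Mos, Dazl and Tpx2 had neither form of the element in their last 100 annotated bases, which says only that these letters are not in that window.

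The interval from 2 h to 6 h uses 8 other libraries, in the same fit with the same estimate of spread. It shares the hours from 2 h to 4 h with the 4 h contrast, so a change within those hours can show in both. From 2 h to 6 h, 108 of 7346 genes were called higher beyond total RNA (1.47%) and 8 lower (0.109%). Of the 227 genes higher at 4 h, 209 (92.1%) were above 0 from 2 h to 6 h. The 227 had a median of 0.70, and 73 were called higher. Of the 148 lower at 4 h, 123 (83.1%) were below 0. The 148 had a median of -0.34, and 4 were called lower. Over all genes 47.7% were above 0 from 2 h to 6 h, and 65% had the same sign in both contrasts. Cnot8 (1.93, adjusted p = 0.00441), Zfp616 (1.72, adjusted p = 0.000332), Rnf219 (1.504, adjusted p = 0.00187), Dazl (1.34, adjusted p = 0.000596), Ccnb1 (1.30, adjusted p = 0.000465), Oosp1 (1.26, adjusted p = 0.000738), Rfpl4 (1.23, adjusted p = 0.00065) and Pan2 (1.21, adjusted p = 0.00063) rose between 2 h and 6 h as well. Plat, not called at 4 h, rose by 1.49 (adjusted p = 0.000448) over that interval. Smc4 (-0.92, adjusted p = 0.0334), Uhrf1 (-0.83, adjusted p = 0.0102) and Ybx2 (-0.88, adjusted p = 0.0459) fell over that interval as well. Izumo1r (0.03, adjusted p = 0.983), Dctd (-0.02, adjusted p = 0.988) and Zp2 (-0.22, adjusted p = 0.669) were not called between 2 h and 6 h.

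Set side by side against the same 0 h libraries, the excess change took different courses. Ccnb1 was at 0.52 at 2 h, 1.37 at 4 h, 1.82 at 6 h and 2.24 at 8 h, and Cnot8 at 0.40, 1.72, 2.33 and 3.22. Dazl was at 0.16 at 2 h and 0.77 at 4 h and then at 1.499 and 1.44. Magoh was already at 1.49 at 2 h and then at 1.90, 2.19 and 2.15, and Ndc80 at 1.11, 1.70, 1.90 and 2.13. Izumo1r was at -1.40 at 2 h and -1.78, -1.38 and -1.24 afterwards, and Eif5b at -1.51 at 2 h and -1.12, -0.99 and -0.77 afterwards, so that both values were lower at 2 h than at 8 h. Calr went from -0.94 at 2 h through -1.29 and -1.56 to -2.13 at 8 h. Btg4, at 0.05 at 4 h, was at 0.78 at 6 h and 1.80 at 8 h. These values share their 0 h libraries and are given without a test of the differences between them.

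**Figure D4:**
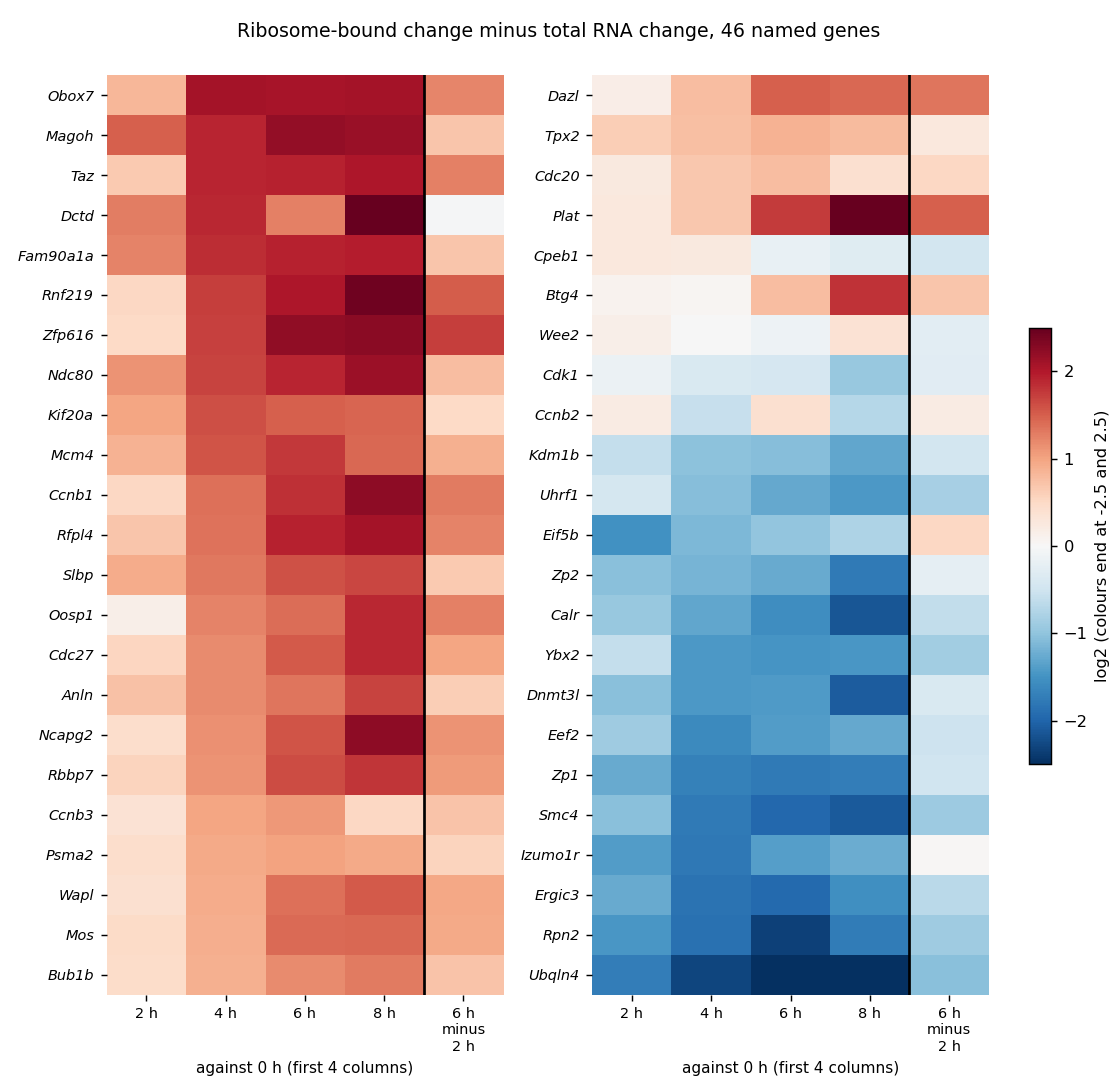
Excess change of 46 genes named by rule (the 35 that held and the panel of 12, which share Ccnb1), ordered by their value at 4 h, at 2, 4, 6 and 8 h against the same 0 h libraries, and between 2 h and 6 h (last column, libraries that the 4 h value does not use); red is higher and blue lower, on a log2 scale whose colours end at -2.5 and 2.5. Ccnb1 and Ndc80 reach 2.24 and 2.13 at 8 h, whereas Izumo1r and Eif5b are at -1.40 and -1.51 by 2 h.

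In a few genes total RNA made at least as large a part of the excess change as ribosome-bound RNA: Mapre2 (0.34 on ribosomes and -0.44 in total RNA), Sytl2 (0.40 and -0.51) and Dnaaf5 (0.569 and -0.569, equal to 3 decimals) among the genes called higher, and Emc7 (-0.85 and 0.95) among those called lower. These 4 were singled out after their values were seen, had adjusted p of 0.0172 to 0.0454 and did not hold. Of the 801 genes that rose in ribosome-bound RNA 577 did not pass beyond total RNA, and of the 665 that fell 521 did not. The median standard error of the excess change was 0.38 against 0.27 for the ribosome-bound change alone, so these genes are not shown to lack one.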

How the data were processed

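Ribosome-bound and total RNA were sequenced from 20 samples in 10 groups, 2 libraries per group. Per the submitters' processing notes, the build was mm10 and the tools were limma, edgeR, HTSeq, HISAT2, SAMtools, Trimmomatic 0.36 and FastQC, in no stated order. The deposited values are a signal the authors scaled per library: their totals of 968768 to 1052767 lie on both sides of the sum that plain CPM would have, and steps between low values match whole reads within 0.01. The plan assumed CPM; the test was kept. Not given in the sources used here were poly(A) selection, strand and the low-value filter.

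One model in limma 3.58.1 (R 4.3.3) was fitted to log2(value + 1) over 20 libraries and 10 groups (10 residual degrees of freedom, trended variance), with Benjamini-Hochberg adjustment over 7346 genes. All 7346 reached a value of 1 in at least 2 libraries. Fold changes on this scale understate those of low genes. ± is limma's standard error. The function was tested on simulated data. Genes were grouped in fixed lists. Named by rule were the 10 largest changes each way (mean at least 20 in each table, replicate differences apart, no unnamed models), up to 2 called members per list and direction, and a panel of 12. One of the largest falls is not reported here. Members and lists were chosen with earlier results of these data known. Of 8114 gene IDs 8103 matched GENCODE vM21, 2264 in another version. Alternatives were pseudocount, filter, libraries in the fit, centring, replicate blocks, length and GC content, and leaving out each library.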

Additional observations from a re-analysis of the deposited data

Results flagged for a closer look

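Of the 197 genes listed only in the ribosome-bound table, for which no excess change can be computed, 5 were called higher at 4 h than at 0 h in a limma model of that table, a signal outside the measurement described above. The 5 are Gm4981, Sema4c, Pigg, Mettl15 and Ostc. Sema4c, a semaphorin, read 3.11 and 1.95 at 0 h and 14.3 and 10.7 at 4 h (1.94 ± 0.57, SE, adjusted p = 0.0284). Ostc, a subunit of the oligosaccharyl transferase, read 0.52 and 6.03 and then 14.4 and 10.3 (2.01 ± 0.62, adjusted p = 0.0344). Mettl15, a mitochondrial rRNA methyltransferase, read 5.10 and 3.9 and then 16.2 and 11.7 (1.43 ± 0.44, adjusted p = 0.0326). The 571 genes listed only in the total RNA table gave 0 calls in limma.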

How the results depend on the processing

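Under both other pseudocounts, the stricter filter on low values, centring on library medians, the letter A or B as a block (370 genes called) and the length and GC correction, the 375 calls at 4 h stayed within 1.5 times. In a fit of only the 8 libraries 162 passed (101 higher, 61 lower), and 15 of the 57 called genes named by rule were lost. Leaving out 1 library gave 151 to 426 calls (105 to 252 higher, 46 to 174 lower), and 683 to 1474 for ribosome-bound RNA alone, with 683 without 4 h library A. The fit then has fewer samples. Total RNA gave 1 call with the letter block and 0 under each other alternative. Ribosome-bound and total RNA libraries of 1 time share a letter, but the labels do not say that they share oocytes: their deviations correlated between -0.084 and 0.036 over the 5 times, so the letters were not taken as pairs. With time and letter as the replicate block, 0 genes were called at 4 h (1169 at an unadjusted p under 0.05) and 0 from 2 h to 6 h, also with the length and GC correction. Of the genes named, those that changed sign were not called: Btg4, at -0.14 with the length and GC correction, with or without the block, -0.08 without ribosome-bound 0 h A and -0.06 without 4 h A (up to 0.176 with another library left out), and Wee2, at 0.022 when centred, 0.08 without ribosome-bound 0 h A or total RNA 0 h A and 0.101 without ribosome-bound 4 h B (down to -0.136 with another left out). Both planned edgeR tests on recovered reads were not run. The steps match whole reads, but the lowest genes are not listed, so the recovered counts did not pass the check set for those tests. A value of 10 stood for 282 to 444 reads in the 8 libraries, and whether depth limited the results was not tested. The 2 libraries per group leave a median standard error of 0.38 (log2).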

Other observations

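Among the genes listed only in the ribosome-bound table, 4 were called lower at 4 h: Map7d2, Anks6, Glmp and Ttc13. Map7d2, of a family of microtubule-binding proteins, read 14.1 and 16.2 at 0 h and 3.01 and 4.99 at 4 h (-1.72 ± 0.49, limma SE, adjusted p = 0.0247). Glmp, a glycosylated protein of the lysosomal membrane, read 22.6 and 18.4 and then 5.19 and 5.57 (-1.75 ± 0.57, adjusted p = 0.0467). Each stood at a low level, where total RNA gives no value to set beside it.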
